A study of Mus musculus with 6 samples.

Results

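The Rab GTPases are a family of small membrane-bound switches that direct vesicle traffic, and their transcripts were followed here in mouse blood progenitor cells. A gene was taken as a member when its symbol was Rab followed directly by a number and at most a letter, and when a probe set of the array mapped to that symbol alone. This gave 59 of the 18193 genes with such a probe set, each read from its brightest one, the probe set with the highest mean signal over the 6 arrays. Of 72 symbols that begin with Rab and a number, 13 were left out because they name interacting proteins, regulators or antisense transcripts. The cells were C57BL/6J bone marrow cells positive for c-Kit and Sca-1 and negative for lineage markers, a phenotype abbreviated KSL that takes in blood stem cells and early progenitors. Every culture ran for 7 days without serum on human umbilical vein endothelial cells (HUVEC), with a mix of 5 mouse cytokines, and the cells that still had the KSL phenotype were then sorted for total RNA. PBS was added to 3 of these cultures and mD1R to 3 others, as biological replicates. The labels do not spell out mD1R. From knowledge of the work behind the series, it is an engineered protein that joins the receptor-binding part of mouse Delta-like 1, a ligand of Notch receptors, to a peptide that attaches to endothelium. The comparison asks how the transcripts changed in cells that carried the KSL surface markers after this exposure.

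A Rab protein is active when it binds GTP. Exchange factors load it with GTP at a membrane, effectors such as tethers and motor adaptors bind the loaded form, and GTPase-activating proteins end the cycle. A carboxy-terminal lipid holds the protein in the membrane, and GDP dissociation inhibitors lift the inactive form out of it. Each compartment carries its own members, with Rab5 on early endosomes, Rab7 on late endosomes, Rab11 on recycling endosomes, and Rab1, Rab2 and Rab6 between the endoplasmic reticulum and the Golgi apparatus. Rab27 and Rab3 proteins act at the secretory granules of mast cells, platelets, neutrophils and glands. In the account below each member stands under 1 main compartment, although many act at several.

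The deposited values are log2 signals, and array medians lay between 6.07 and 6.42. Kit, which encodes the c-Kit receptor of the gate, averaged 9.34 ± 0.57 on the PBS arrays and 10.69 ± 0.97 on the mD1R arrays (SD, n = 3 each; limma adjusted p = 0.109). Ly6a, which encodes Sca-1, was not analysed here. The markers of other blood cells are given by their counts, to be read against the 15.6% of all genes that passed the test (8.49% higher, 7.09% lower), and by their summed linear signal. Of the mast cell and basophil markers, 6 of the 9 measured rose, 1 of them (Mcpt4) from below the filter level with PBS, and 0 fell (limma). Hdc differed the other way by -1.34 (adjusted p = 0.150), and the summed signal was 13824 to 22617 with PBS and 60498 to 90409 with mD1R. Of 12 neutrophil granule markers 2 fell and 0 rose, with summed signals of 282453 to 351872 with PBS and of 35203, 131938 and 338443 on mD1R replicates 1, 2 and 3. The 2 that fell, Fcnb and Mmp9, were below every PBS array on all mD1R arrays. Monocyte and macrophage markers (5 of 11 rose, 0 fell, with Ccr2 at -1.37 and Cx3cr1 at -0.54, neither past the test) summed to 56226 to 68622 and 103322 to 139858, and platelet markers (2 of 10 rose, 0 fell) to 9146 to 23643 and 39063 to 62662. Of the 8 erythroid markers 4 were measured, of which 1 fell to below the filter level, and their sums were 903 to 3617 and 426 to 846. Of the 8 endothelial markers 4 were measured and 1, Pecam1, rose (sums 841 to 1046 and 1260 to 2738), while Cdh5, Tek, Tie1 and Emcn lay below the filter on low signals. No marker on these lists was at 0 on every array. The part that a change in cell mixture has in the values below was not tested, and in sorted bulk RNA fewer cells of a type and less RNA per cell cannot be told apart.

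Rab genes moved in both directions, and the largest changes among genes past the test belonged to granules and to late endocytic compartments. Of the 59 members, 51 passed the filter on low signals (86.4%, against 67.7% of all genes). With mD1R 9 of the 51 rose and 2 fell at an adjusted p of 0.05 (limma, Benjamini-Hochberg over all 27022 probe sets kept). That is 21.6% of the members, against 15.6% of 12320 genes read in the same way. Across all genes 8.49% rose and 7.09% fell. The risers were Rab34, Rab27b, Rab7b, Rab38, Rab19, Rab12, Rab20, Rab9 and Rab10, and the genes that fell were Rab3d and Rab28. The arrays of the groups did not overlap for 26 of the 51 members (51%) and for 40.3% of all genes. All 11 were among the 26, but they were picked on these same arrays, so this is no further support. The median log2 change of the 51 was 0.18, and that of all genes 0.09. In size, 27 of the 51 differed by less than 0.5 on the log2 scale (52.9%, against 54.1% of all genes) and 15 by at least 1 (29.4%, against 20.9%). So most members differed by less than 0.5, as most genes did, and a smaller set differed widely.

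**Figure D1:**
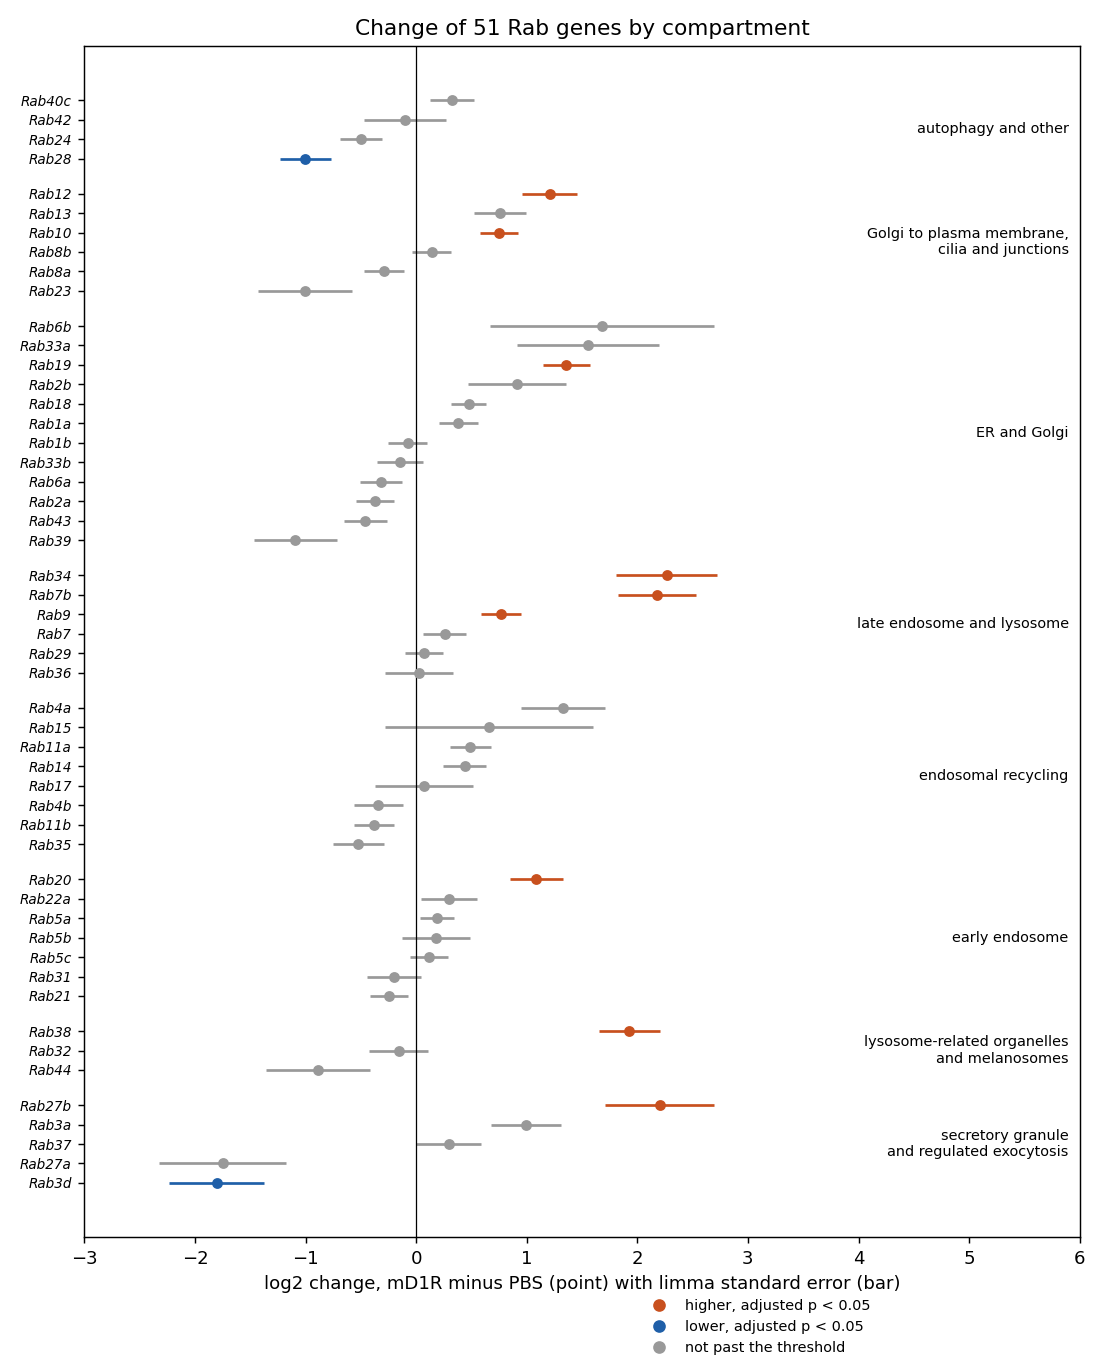
Log2 change with mD1R (mD1R minus PBS, point) and its limma standard error (bar) for the 51 Rab genes that passed the filter, 3 arrays per group, grouped by main compartment. All 6 late endosome and lysosome genes lie above 0, as do 31 of the 51 members and 6832 of 12320 genes. Of the 6, Rab29 and Rab36 lie within their standard error of 0. The changes run from -1.80 for Rab3d to 2.26 for Rab34.

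The count of 11 changed when single arrays were left out. With PBS replicate 1, 2 or 3 left out it was 4, 3 or 0, and with mD1R replicate 1, 2 or 3 left out 8, 3 or 15. In the fit with 0 calls, 17 members had an unadjusted p under 0.05, against 22 with all arrays (43.1%, and 34.0% of all genes). With array weights 19 members passed, and with no variance trend 5. The 11 genes kept their direction in each of 18 alternatives with a test, but many of these could not have turned it. The filter, variance and replicate block settings leave the change as it was. Leaving out an array cannot turn it where the groups do not overlap. By the signal of a bacterial control transcript added before hybridisation the arrays fell into 2 sets, with PBS replicate 1 and mD1R replicates 1 and 2 in the first and the other arrays in the second. These are called the control-signal sets here, and no label says that they were processed apart. Because their groups do not overlap, all 11 genes had to have the same direction in both sets, which is no further support. Of the 51 members 39 had it, and of all genes 72.1%. The array of mD1R replicate 3 lay nearest to the PBS mean, among the mD1R arrays, for 30 of the 51 members and for 49.5% of all genes.

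**Figure D2:**
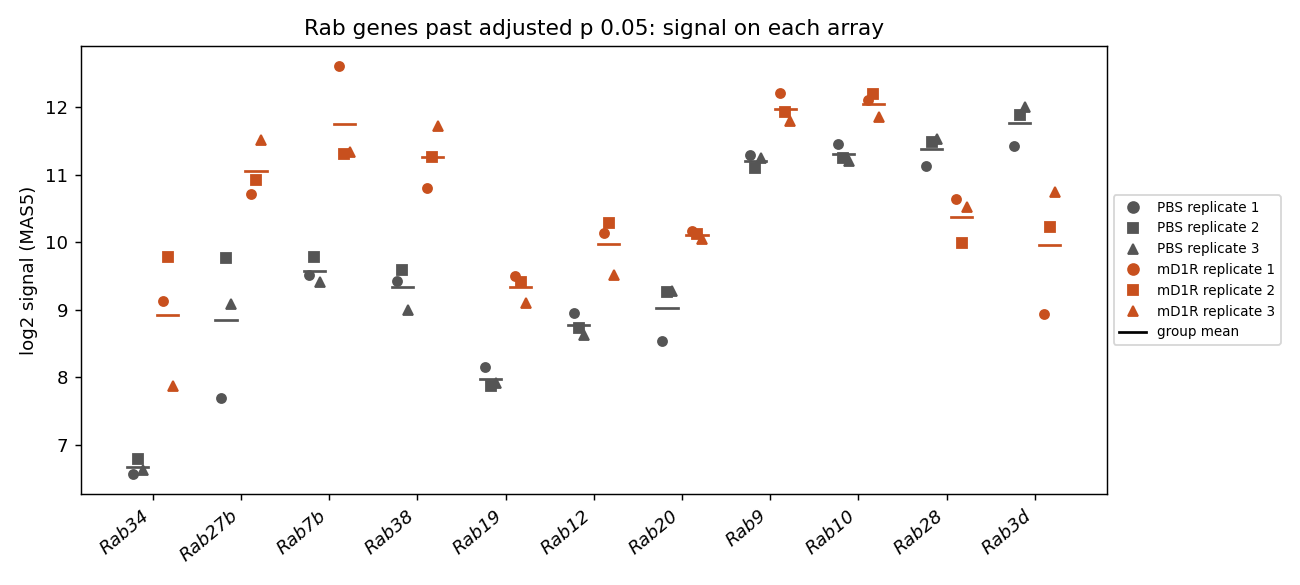
Log2 signal on each of the 6 arrays for the 11 Rab genes past an adjusted p of 0.05, with symbols for replicates and bars for group means. For each gene every mD1R array lies on one side of all PBS arrays, and Rab34 and Rab3d spread most among the mD1R arrays.

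Among the Rabs of secretory granules the related genes Rab27a and Rab27b differed in opposite directions. Both proteins dock granules at the plasma membrane. Rab27b, known from mast cells and platelets, had log2 signals of 7.70, 9.77 and 9.08 on the PBS arrays and 10.71, 10.92 and 11.52 with mD1R. The lowest mD1R array was above the highest PBS array, and PBS replicate 1 was far below the other PBS arrays. It rose by 2.20 ± 0.49 (log2, SE, 4.60-fold; adjusted p = 0.0278). Without PBS replicate 3 or mD1R replicate 2 the call was lost (adjusted p = 0.0930 and 0.0866), as it was with no variance trend (0.0515) and with probe sets averaged (0.0712). The change was 3.12 and 2.09 within the 2 control-signal sets. Its 3 other probe sets differed by 1.71, 1.71 and 0.43, and none of these passed (adjusted p = 0.152, 0.0651 and 0.266).

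Rab27a, known from the lytic granules of killer lymphocytes and from neutrophils and melanocytes, had log2 signals of 11.30, 11.90 and 11.77 with PBS and of 8.59, 9.92 and 11.22 with mD1R. All mD1R arrays were lower, but replicate 3 was only just below the lowest PBS array. The difference of -1.75 ± 0.57 did not pass (adjusted p = 0.0846). Without mD1R replicate 3 it was -2.40 and passed (adjusted p = 0.00565), and with array weights it passed too (0.0107). Within the control-signal sets it was -2.05 and -0.61. Of its 3 dimmer probe sets, 2 fell, by 2.20 ± 0.58 (adjusted p = 0.0446) and 3.03 ± 0.82 (adjusted p = 0.0489), and the dimmest differed by -0.14. The first of these read 4.65 on mD1R replicate 1, below the filter level, so its size is uncertain. The second read 3.30 and 5.18 on mD1R replicates 1 and 2, also below that level, and is no support. The summed signal of the neutrophil granule markers was also lowest on mD1R replicate 1 and lay within the PBS range on replicate 3, although single markers differed from the sum. The part of these markers in the result was not tested.

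The other granule Rabs also split. Rab3d, which is found on the secretory granules of exocrine and mast cells, had log2 signals of 11.42, 11.89 and 12 with PBS and of 8.93, 10.22 and 10.75 with mD1R. Replicate 1 was again the lowest of the mD1R arrays and replicate 3 the highest, and the groups did not overlap. It fell by 1.80 ± 0.43 (adjusted p = 0.0334), by 1.84 and 1.20 within the 2 control-signal sets. It missed the threshold when PBS replicate 1, 2 or 3 (adjusted p = 0.0696, 0.108 and 0.128) or mD1R replicate 2 (0.0874) was left out, with no variance trend (0.0602) and with probe sets averaged (0.0700). A second probe set fell by 1.29 ± 0.34 (adjusted p = 0.0472), and the others differed by -2.23 and -0.25 and did not pass.

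Rab3a, best known from synaptic vesicles, differed by 1.0 ± 0.32, which missed the threshold (adjusted p = 0.0769). With array weights it passed (0.0225), as it did without mD1R replicate 1 (0.0305). Its signals were 8.45, 8.88 and 8.79 with PBS and 9.05, 10.26 and 9.80 with mD1R. This probe set is of a class whose probes can match other sequences (its name ends in _x_at), and a dimmer probe set of the gene differed by -1.58 ± 1.02. The dimmer one read 2.83 and 3.81 on mD1R replicates 1 and 3, below the filter level. The direction of Rab3a turned with the probe set, and the mean of both gave -0.29. At such signals the dimmer one is no support for either direction. Rab37, described on mast cell granules, differed by 0.29 ± 0.30 (adjusted p = 0.552). Rab26, Rab3b and Rab3c lay below the filter, with group means of log2 signal between 2.51 and 5.73.

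Lysosome-related organelles, which include melanosomes and platelet dense granules, are built with the related proteins Rab32 and Rab38. Rab38 had log2 signals of 9.42, 9.59 and 9.0 with PBS and 10.81, 11.27 and 11.72 with mD1R. It rose by 1.93 ± 0.27 (3.81-fold; adjusted p = 0.0113), and a second probe set rose by 1.63 ± 0.37 (adjusted p = 0.0285). Rab38 was among the steadiest calls, past the threshold in 17 of 18 alternatives and lost only without PBS replicate 3 (adjusted p = 0.0677). Rab32 stood at 11.95 ± 0.05 on the PBS arrays and 11.79 ± 0.54 on the mD1R arrays (SD, n = 3 each), and the difference of -0.16 ± 0.27 (SE) missed the threshold (adjusted p = 0.739). Rab44, a large member with calcium-binding EF hands that is expressed in mast cells and other granulocytes, had 11.12, 10.81 and 10.87 with PBS and 9.02, 9.95 and 11.17 with mD1R. As for Rab27a and Rab3d, mD1R replicate 1 was the lowest and replicate 3 the highest of the mD1R arrays, and for Rab44 replicate 3 was above the PBS arrays. Its difference of -0.89 ± 0.47 did not pass (adjusted p = 0.251), was -1.45 and passed without mD1R replicate 3 (0.0129), and turned to 0.32 in the second control-signal set.

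Of 6 measured late endosome and lysosome genes 3 rose and 0 fell, where 8.49% of all genes rose and 7.09% fell, and with so few members the compartment itself was not tested. Rab7b, which works in transport from late endosomes to the trans-Golgi network and limits Toll-like receptor signalling in macrophages, had log2 signals of 9.52, 9.79 and 9.41 with PBS. With mD1R they were 12.61, 11.31 and 11.33, so the groups lay far apart and replicate 1 was the highest. Rab7b rose by 2.18 ± 0.35 (4.52-fold; adjusted p = 0.0128), by 2.44 and 1.73 within the 2 control-signal sets. A second probe set differed by 1.78 ± 0.54 (adjusted p = 0.0681). The dimmest one was below the filter level on all PBS arrays and passed the filter only through the mD1R arrays, so its difference of 2.59 is no support. The call was lost without PBS replicate 3 (adjusted p = 0.0679) and in no other of the 18 alternatives. The summed signal of the monocyte and macrophage markers was also higher on all 3 mD1R arrays, while Ccr2 and Cx3cr1 were not higher, and its part in the result was not tested.

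Rab34, which helps to place lysosomes near the Golgi apparatus and is needed for primary cilia, had the largest change among the 51 members past the filter. Its log2 signals were 6.57, 6.79 and 6.63 with PBS and 9.14, 9.79 and 7.87 with mD1R. The PBS arrays were close together and mD1R replicate 3 lay between them and the other mD1R arrays. Rab34 rose by 2.26 ± 0.45 (4.80-fold; adjusted p = 0.0208), by 2.89 and 1.15 within the 2 control-signal sets. A dimmer probe set differed by 4.27, but read 5.35, 2.98 and 6.00 with PBS, about the filter level, so its size is not used. Leaving out mD1R replicate 3 gave 2.80. Each fit that left out another array lost the call (adjusted p between 0.0530 and 0.0867).

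Rab9, which returns mannose 6-phosphate receptors from late endosomes to the Golgi apparatus, had log2 signals of 11.30, 11.10 and 11.25 with PBS and 12.22, 11.93 and 11.80 with mD1R. It rose by 0.77 ± 0.18 (adjusted p = 0.0309), and its call was lost when any array but mD1R replicate 3 was left out (adjusted p between 0.0600 and 0.130 in those fits) and with no variance trend (0.0676). Rab7, the general late endosome Rab, differed by 0.26 ± 0.19, Rab29 by 0.07 ± 0.17 and Rab36 by 0.03 ± 0.31, and none passed. Rab9b lay below the filter.

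The members of early endosomes differed little, apart from Rab20. This Rab acts in phagosome and endosome maturation and had log2 signals of 8.54, 9.27 and 9.29 with PBS and 10.16, 10.13 and 10.05 with mD1R. The mD1R arrays were nearly equal, and PBS replicate 1 was the lowest. Rab20 rose by 1.09 ± 0.24 (2.12-fold; adjusted p = 0.0276), with 1.61 and 0.78 within the control-signal sets. It missed the threshold with arrays centred on their medians (adjusted p = 0.0513), with no variance trend (0.0515) and in each fit that left out an array other than mD1R replicate 3 (0.0526 to 0.0894). Rab5a, Rab5b and Rab5c, which organise fusion at early endosomes, differed by 0.19 ± 0.15, 0.18 ± 0.31 and 0.12 ± 0.17. Rab21, Rab22a and Rab31 differed by -0.25, 0.30 and -0.20, and none of these 6 passed.

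Recycling endosome genes had 0 calls among 8 measured members in limma, with 2 past unadjusted p 0.05, or 25%, against 34.0% of all genes. These were Rab4a and Rab11a. Rab4a, a Rab of fast recycling, had log2 signals of 6.64, 6.28 and 5.58 with PBS and 7.33, 7.19 and 7.98 with mD1R, and every mD1R array was higher. Its difference of 1.33 ± 0.38 just missed the threshold (adjusted p = 0.0561), and it passed after centring on medians (adjusted p = 0.0372), quantile normalisation (0.0339), array weights (0.0319) or averaging of its probe sets (0.0446). A dimmer Rab4a probe set, which differed by 2.52, was below the filter level on all PBS arrays and is no support, and averaging drew on it. Rab11a, the main Rab of slow recycling, differed by 0.49 ± 0.18 (adjusted p = 0.121) and its relative Rab11b by -0.38 ± 0.18 (adjusted p = 0.201). Rab14, Rab15, Rab17, Rab35 and Rab4b differed by 0.44, 0.66, 0.07, -0.52 and -0.34, and Rab25, an epithelial member, was below the filter.

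In the endoplasmic reticulum and Golgi group 1 of 12 measured members passed, or 8.33%, against 15.6% of all genes. Rab19, a less studied Golgi member, had log2 signals of 8.16, 7.87 and 7.92 with PBS and 9.51, 9.41 and 9.10 with mD1R. It rose by 1.36 ± 0.21 (2.56-fold; adjusted p = 0.0123), by 1.30 and 1.21 within the control-signal sets. Leaving out PBS replicate 2 or 3 ended the call, and no other alternative did (adjusted p = 0.0545 and 0.0679). The Rabs of bulk secretory transport differed by less, with 0.38 ± 0.18 for Rab1a, -0.08 ± 0.17 for Rab1b, -0.37 ± 0.17 for Rab2a and -0.32 ± 0.19 for Rab6a. For Rab2a the direction turned with the probe set, as only 1 of its 5 other probe sets past the filter gave the same one. Rab18, a Rab of lipid droplets and the endoplasmic reticulum, differed by 0.48 ± 0.16 (adjusted p = 0.0870), and every mD1R array was above every PBS array. The other 6 measured members ran from -1.09 ± 0.38 for Rab39 to 1.68 ± 1.01 for Rab6b, and none passed. Rab6b had 2.32 on PBS replicate 3, against 6.79 and 5.84 on the other PBS arrays, and 6.54 to 6.79 with mD1R. Rab39b and Rab30 were below the filter. Rab39b had log2 signals of 2.65, 2.57 and 4.23 with PBS and 6.29, 5.23 and 5.64 with mD1R, groups that did not overlap, but no test was made at that level. Its second probe set, nearly as bright, did overlap, with 2.92, 5.33 and 4.14 against 3.88, 4.54 and 4.75.

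Among the Rabs that carry vesicles from the Golgi apparatus and endosomes to the plasma membrane, cilia and junctions, 2 of 6 rose and 0 fell. Of all genes 8.49% rose and 7.09% fell, and the group itself was not tested. Rab12, which acts in transport from recycling endosomes to lysosomes and in the movement of mast cell granules, had 8.95, 8.73 and 8.63 with PBS and 10.14, 10.29 and 9.52 with mD1R. It rose by 1.21 ± 0.25 (2.31-fold; adjusted p = 0.0220), whereas a dimmer probe set differed by 0.09 (adjusted p = 0.847). Rab10, a Rab of exocytosis, had 11.46, 11.26 and 11.21 with PBS and 12.11, 12.21 and 11.85 with mD1R. It rose by 0.75 ± 0.17 (adjusted p = 0.0314), and its other probe sets differed by 0.44 and 0.59 and did not pass. Both calls were lost when any array but mD1R replicate 3 was left out, with adjusted p between 0.0520 and 0.101 for Rab12 and between 0.0578 and 0.141 for Rab10. Averaging probe sets also ended both calls (adjusted p = 0.0720 and 0.126), and having no variance trend that of Rab10 (0.0689). Rab8a and Rab8b, close relatives of Rab10, differed by -0.29 ± 0.18 and 0.14 ± 0.18, Rab13 of tight junctions by 0.76 ± 0.24 (adjusted p = 0.0724) and Rab23, which restrains Hedgehog signalling, by -1.0 ± 0.42 (adjusted p = 0.156).

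Rab28, a divergent member known from photoreceptor cilia, was the other gene that fell. Its log2 signals were 11.13, 11.49 and 11.53 with PBS and 10.65, 9.99 and 10.52 with mD1R, with no overlap. It fell by 1.0 ± 0.23 (2.0-fold; adjusted p = 0.0293) and its second probe set gave -1.01 and passed too. It was not called when PBS replicate 1, 2 or 3 (adjusted p = 0.0528, 0.113 and 0.128) or mD1R replicate 2 (0.0852) was left out, or with no variance trend (0.0589). Rab24, which works late in autophagy, differed by -0.50 ± 0.19 (adjusted p = 0.122), while its second probe set fell by 0.71 ± 0.19 (adjusted p = 0.0495). Rab40c and Rab42 differed by 0.32 and -0.10, and Rab40b was below the filter.

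Different probe sets of a gene read different parts of its transcripts. Of the 51 members, 32 had at least 1 other probe set past the filter, 59 in all, and 46 of these 59 gave the direction of the brightest. For the 11 genes that passed, all 14 other probe sets gave the same direction and 5 passed, among them the dim probe sets of Rab34 and Rab7b described above. Those dim probe sets read about or below the filter level with PBS, so they are no support within these counts. The genes Rab20, Rab9 and Rab19 rest on a single probe set.

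**Figure D3:**
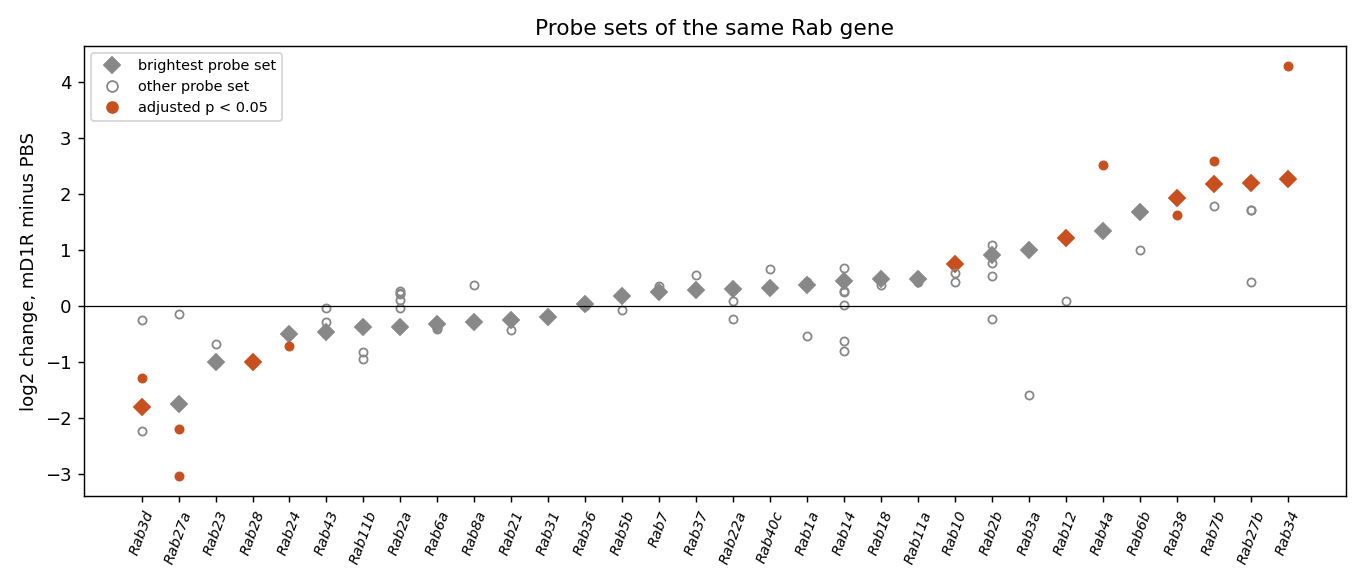
Log2 change (mD1R minus PBS) of each probe set past the filter, for the 32 Rab genes with more than 1 such probe set, in the order of the brightest one (diamonds). Probe sets of Rab27a lie between -3.03 and -0.14 and those of Rab27b between 0.43 and 2.20, while the probe sets of Rab3a lie on both sides of 0.

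Because related Rab genes differed unequally, the log2 ratio between 2 relatives was formed within each array and compared between the groups for 14 pairs. The ratio carries the brightness of both probe sets, so only its shift is read. For Rab27b over Rab27a it was -3.61, -2.13 and -2.69 with PBS and 2.12, 1.0 and 0.30 with mD1R, a shift of 3.95 (SD within groups 0.84, n = 3 each). The groups did not overlap, and the exact permutation p was 0.1, the smallest that 3 against 3 arrays can give (two-sided, 0.2 after Benjamini-Hochberg adjustment over the 14 pairs). The shift lay between 3.46 and 4.37 with any array left out and was 3.29 with all probe sets averaged. Rab38 over Rab32 shifted by 2.09 (SD 0.32), from -2.47, -2.37 and -3.0 to -0.36, -0.87 and -0.35, with the same exact p.

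The other 5 of the 7 pairs without overlap had that p as well. How often other gene pairs separate was not counted, and for single genes it was 40.3% of all genes. The count of 7 is therefore not read as a result. Rab3d over Rab3a shifted by -2.80, but by -1.10 with probe sets averaged, which drew on the dim Rab3a probe set. Rab4b over Rab4a shifted by -1.67, Rab10 over Rab8a by 1.04, Rab11b over Rab11a by -0.87 and Rab8b over Rab8a by 0.43. With all probe sets averaged Rab8b over Rab8a gave -0.13, so its direction was not kept. Other pairs overlapped between the groups. Among them Rab6b over Rab6a shifted by 2.0, Rab33b over Rab33a by -1.70, Rab2b over Rab2a by 1.28 and Rab31 over Rab22a by -0.49. The 3 pairs among Rab5a, Rab5b and Rab5c, which also overlapped, shifted by -0.07, -0.06 and -0.01, the smallest shifts of the 14. Since 3 against 3 arrays cannot pass 0.05 in this test, the shifts are given as sizes.

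**Figure D4:**
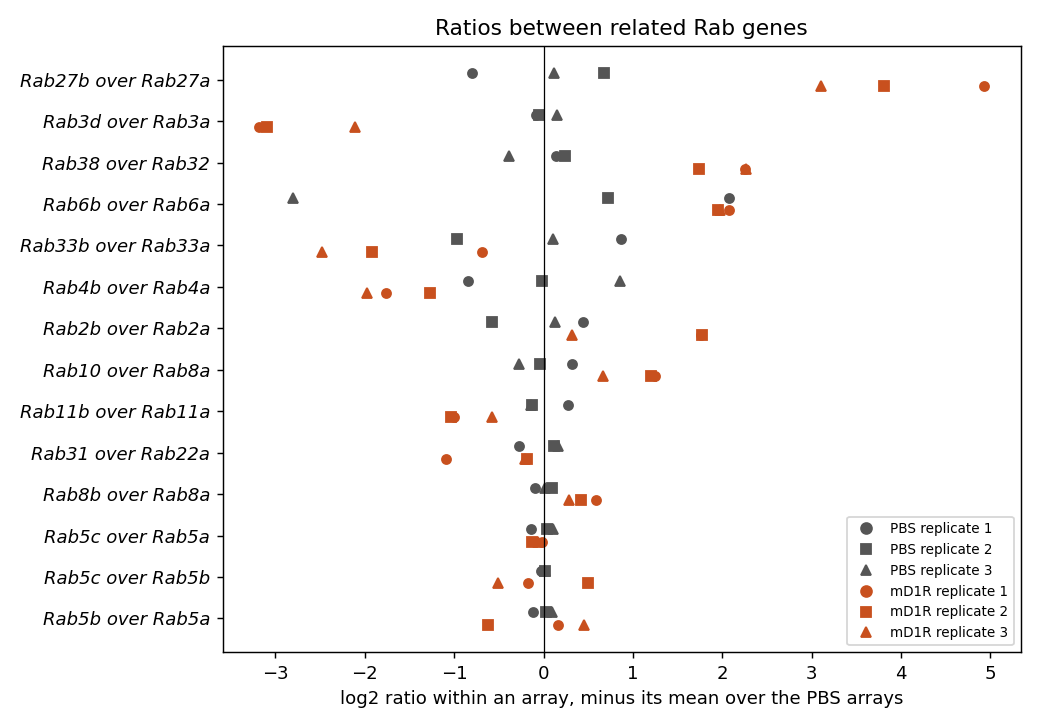
Log2 ratio between 2 related Rab genes on each array, with the mean of the 3 PBS arrays set to 0, for 14 pairs. Rab27b over Rab27a shifted by 3.95 and no mD1R array overlapped a PBS array, whereas the Rab5 pairs stayed near 0.

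The promoters of 4 members that passed are shown, 2 of the genes that rose beside the 2 that fell. Each is the stretch of 250 bases before a start of the gene in RefSeq's GRCm38.p6 annotation, on the gene's strand (Rab34 has 2 starts there, the others 1). Of the 11 genes 8 were matched there. The letters in capitals are matches, on either strand, to CACGTG and CATGTG (core letters bound by basic helix-loop-helix factors), AGATAA and TGATAA (bound by GATA factors) or CCAAT (bound by NF-Y). No pair of these motifs overlaps in the stretches shown. The rising genes are Rab34 (chr11:78188177-78188426, plus strand) and Rab20 (chr8:11478641-11478890, minus strand), and the falling ones Rab3d (chr9:21918184-21918433, minus strand) and Rab28 (chr5:41708180-41708429, minus strand).
Rab34: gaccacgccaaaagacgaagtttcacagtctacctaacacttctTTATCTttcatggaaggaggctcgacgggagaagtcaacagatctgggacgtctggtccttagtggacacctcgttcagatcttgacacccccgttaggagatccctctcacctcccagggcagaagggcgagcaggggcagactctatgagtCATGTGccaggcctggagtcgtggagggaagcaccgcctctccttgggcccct
Rab20: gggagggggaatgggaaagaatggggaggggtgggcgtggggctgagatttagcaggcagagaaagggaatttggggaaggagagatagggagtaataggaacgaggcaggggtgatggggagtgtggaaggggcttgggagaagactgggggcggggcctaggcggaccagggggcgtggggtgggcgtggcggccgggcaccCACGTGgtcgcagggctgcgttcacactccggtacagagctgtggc
Rab3d: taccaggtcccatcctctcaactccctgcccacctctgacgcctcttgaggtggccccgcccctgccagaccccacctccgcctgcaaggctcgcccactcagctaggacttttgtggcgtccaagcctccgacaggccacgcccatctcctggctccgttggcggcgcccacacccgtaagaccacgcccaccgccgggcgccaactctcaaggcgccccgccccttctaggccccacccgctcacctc
Rab28: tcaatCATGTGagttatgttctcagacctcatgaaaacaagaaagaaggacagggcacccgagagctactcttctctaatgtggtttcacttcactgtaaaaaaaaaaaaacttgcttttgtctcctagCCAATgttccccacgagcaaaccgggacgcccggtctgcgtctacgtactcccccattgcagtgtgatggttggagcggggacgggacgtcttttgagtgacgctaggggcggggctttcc

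In these stretches Rab34 had CATGTG 53 bases and AGATAA, on the opposite strand, 206 bases before its start, and Rab20 had CACGTG 46 bases before its start. Rab28, which fell, had CATGTG at 245 and CCAAT at 121 bases, and the stretch of Rab3d held none of the 5 motifs. Over all 60 stretches of the 48 members in the table, CACGTG was in 8.33% (6.02% of all 32851 stretches), CATGTG in 10% (12.3%), AGATAA in 3.33% (9.99%), TGATAA in 6.67% (7.94%) and CCAAT in 40% (33.8%). Of the 8 genes past the test in the table, CACGTG was found for Rab20 alone, CATGTG for Rab28 and Rab34, and AGATAA for Rab34 alone. TGATAA was found for none of them, and CCAAT for Rab10 and Rab28. So the matches of Rab34 and Rab20 are not typical of the genes that rose. The letters say nothing of whether a factor is bound in these cells.

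The genes that load, switch off and read Rab proteins were counted next, from 5 lists with 173 genes, of which 153 were measured. In all 17 rose and 6 fell, 15%, close to the 15.6% of all genes. With PBS replicate 1, 2 or 3 left out the count was 4, 2 or 0, and with mD1R replicate 1, 2 or 3 left out 10, 3 or 47. In the fit with 0 calls, 45 of the 153 had an unadjusted p under 0.05, against 60 with all arrays, where 34.0% of all genes had it. The count past the adjusted threshold was 53 with array weights and 13 with no variance trend.

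Among 39 measured effectors 6 rose and 1 fell (median 0.28), where 8.49% of all genes rose and 7.09% fell. The gene that fell was Sytl1, which encodes a synaptotagmin-like protein that binds active Rab27. Its log2 signals were 7.83, 7.62 and 7.89 with PBS and 5.45, 4.40 and 4.66 with mD1R. It fell by 2.94 ± 0.37 (adjusted p = 0.0104), and 2 of the 3 mD1R signals lay below the filter level of 5.27. Rab11fip5, a Rab11 effector, rose by 1.40 ± 0.27 (adjusted p = 0.0183), Rilpl1, which binds phosphorylated Rab8 and Rab10, by 1.33 ± 0.27 (0.0219), and the Rab5 tether gene Eea1 by 0.89 ± 0.19 (0.0265). Eea1 thus rose, while the Rab5 genes themselves did not pass.

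Of 28 GTPase-activating protein genes 4 rose and 2 fell (median -0.02), where 8.49% of all genes rose and 7.09% fell. Tbc1d9 rose by 1.95 ± 0.34 and Rabgap1 by 1.13 ± 0.22. Sgsm2 is among the 4, but its PBS signal of 4.46 ± 0.28 (SD, n = 3) was below the filter level, which it passed only through the mD1R arrays. Tbc1d10c, which acts on Rab35, fell by 2.06 ± 0.40, from 11.57 ± 0.07 to 9.51 ± 0.89 (SD, n = 3 each; adjusted p = 0.0188). Of 36 exchange factor genes 0 rose and 1 fell in limma. Past unadjusted p 0.05 were 11 of the 36, and 34.0% of all genes. The gene that fell was Dennd1c, an exchange factor for Rab35, by 1.56 ± 0.37 (adjusted p = 0.0330). Rab35 itself differed by -0.52 ± 0.23 (adjusted p = 0.170). Of 7 genes for prenylation and recycling of Rab proteins 1 rose and 0 fell, beside the same shares of all genes. It was Rabac1, a Rab acceptor at the Golgi apparatus, which rose by 0.59 ± 0.16 (adjusted p = 0.0450). This list had 0 calls with arrays centred on their medians, no filter, the filter at the 20th percentile or no variance trend. It also had 0 calls in each fit that left out an array other than mD1R replicate 3.

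SNARE proteins carry out the fusion that Rab proteins prepare. Of 43 measured genes for SNAREs and their partners 6 rose and 2 fell (median 0.19), where 8.49% of all genes rose and 7.09% fell. Snap47 rose by 1.38 ± 0.19 (adjusted p = 0.0109), Stx4a, a plasma membrane syntaxin used in mast cell exocytosis, by 0.97 ± 0.17 (0.0159), Napa, which helps to take SNARE complexes apart, by 1.04 ± 0.20 (0.0182) and Syt11 by 1.43 ± 0.31 (0.0251). For Snap47 the arrays read 9.50, 9.88 and 9.72 with PBS and 11.09, 11.24 and 10.89 with mD1R. All 3 mD1R arrays were above the PBS arrays by more than the spread within either group. The 2 that fell were Cplx2, which differed by -2.29 ± 0.56 (adjusted p = 0.0364), and Stx17, by -0.68 ± 0.18 (0.0451).

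**Figure D5:**
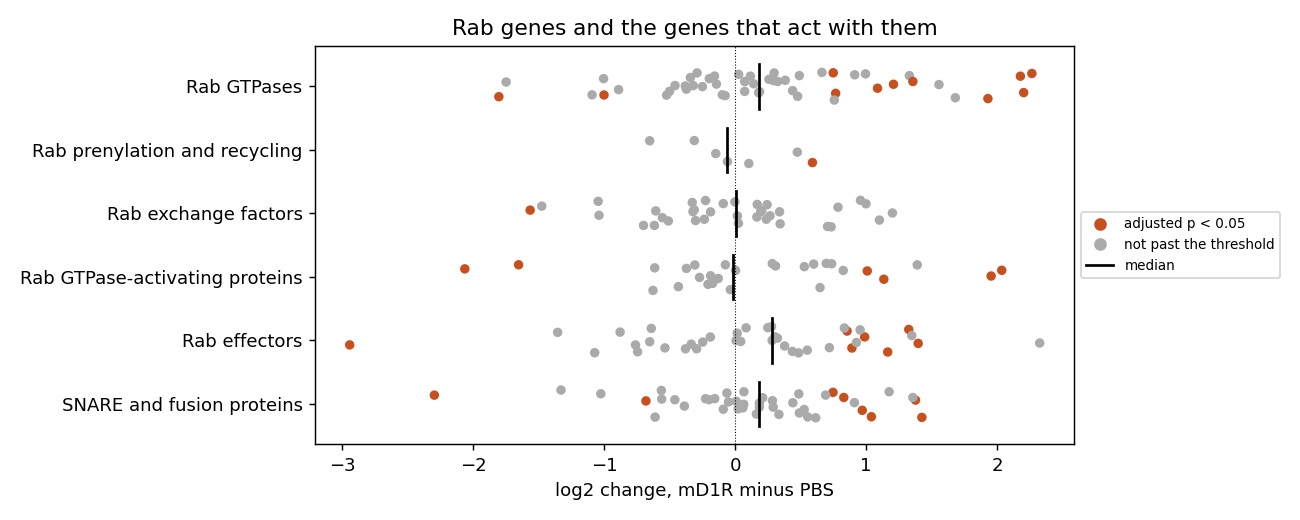
Log2 change (mD1R minus PBS) of each measured Rab gene and of the genes on 5 lists of Rab regulators, effectors and SNAREs, with the median of each set as a bar; coloured points passed an adjusted p of 0.05. Each set spreads on both sides of 0, and the medians lie between -0.06 and 0.28.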

How the data were processed

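The deposited values are log2 signals of 45101 probe sets, 64 of them controls, on 6 arrays of total RNA. Per the submitters' processing notes the authors used MAS5, and its version is not given in the sources used here. From the values, each array had been scaled by itself to a linear trimmed mean of 500, and linear signals under 1 were listed as 0 on the log2 scale. By its brightest probe set no Rab gene was at 0 on any array. A dim Rab3c probe set was at 0 on PBS replicate 3 and mD1R replicate 3. Detection calls were not used here, and a dim probe set may read only background.

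Two-sided tests came from limma 3.58.1 (lmFit and trended eBayes, R 4.3.3) fitted to all probe sets with a mean log2 signal of at least 5.27, the 40th percentile, which kept 27022. Benjamini-Hochberg adjustment ran over these, at a threshold of 0.05, and members were then read from this fit. Errors of changes are standard errors. The nearest members to the filter were Rab42 (mean log2 signal 5.44) inside it and Rab3b (4.84) outside it. Precision is limited by the number of arrays. Over probe sets the standard error had a median of 0.31.

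The members and lists were chosen with earlier results of these data known. The text names each member past the threshold with its value on each array, all granule and lysosome-related members that passed the filter, the 5 next members by p, and up to 4 genes per list by smallest p. The SNARE list genes that fell are named besides. Probe sets were named through the platform annotation, and promoter sequences are RefSeq's. Protein sequences were not analysed here. Alternatives covered scaling, a pseudocount of 16, the filter, the variance model, array weights, blocks, probe set averaging and leaving out each array. The replicate numbers are shared by both groups, but the deviations of same-numbered arrays correlated at 0.31, 0.03 and 0.13, so they were not treated as pairs.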

Additional observations from a re-analysis of the deposited data

How the results depend on the processing

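The count of Rab genes past the threshold, 11, was 5 with no variance trend and 19 with array weights, and between 0 and 15 when an array was left out. The count over the regulator, effector and SNARE lists, 23, was 13 with no variance trend and 53 with array weights, and between 0 and 47 with an array left out. The other alternatives for these counts stayed within 1.5 times. With the replicate number as a block, 14 Rab genes passed, the 11 plus Rab27a (adjusted p = 0.0256), Rab33a and Rab3a (0.0292), and 32 list genes. With the control-signal set as a block, 12 passed, the 11 plus Rab33a. With probe sets averaged, 9 passed, of which 7 were among the 11. Directions across the alternatives were followed for the 11 genes, the 5 next by p, the granule and lysosome-related members and the related pairs. Among these, Rab3a turned with probe sets averaged (-0.29), which drew on its dim probe set, and so did Rab8b against Rab8a (-0.13). Rab32 ran from -0.33 to 0.15 with an mD1R array left out, above 0 only without replicate 1. In the second control-signal set Rab32 was at 0.090 and Rab44 at 0.32, opposite to their main directions. The cause was not tested. Other members turned between the 2 control-signal sets as well, such as Rab7 (0.56 and -0.08), Rab15 (0.73 and -0.69) and Rab6b (-0.18 and 2.71). The pairs with Rab5b, whose shifts were close to 0, lay between -0.34 and 0.30 over their alternatives. Over all measured members, 39 of 51 had the same direction in both control-signal sets. The shift of Rab27b against Rab27a lay between 3.29 and 4.37 in every alternative run for it. The labels call the samples biological replicates and do not say whether the cultures came from separate animals.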
